A study of Arabidopsis thaliana with 39 samples.

Results

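Small RNAs of the *lsm1a lsm1b* double mutant of *Arabidopsis thaliana* were compared with those of the wild type Col-0 grown in the same set. The comparison rests on 6 of the 39 libraries of the series, 3 of *lsm1a lsm1b* and 3 of the control called Col-0 (1), chosen by their genotype labels and not by any measured value. All came from whole seedlings 14 days old on MS medium. In *lsm1a lsm1b* both copies of LSM1 carry T-DNA insertions (SALK_106536 and SAIL_756_305), and it is a single double-mutant line. The same set, Set 1, holds 3 more mutants, *ncb-4* of splicing and *upf1-5* and *upf3-1* of nonsense-mediated decay, and a separate control, Col-0 (2), belongs to Set 2. The study calls its sequenced *lsm1a lsm1b* replicates biological, but no label ties a library to its own batch of plants, so p-values measure the spread between these libraries.

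The LSM1-7 ring binds the shortened 3′ end of an mRNA in the cytoplasm and activates removal of its cap, after which XRN4 degrades the body from the 5′ end. When decapping or decay fails, an uncapped or otherwise aberrant mRNA can be copied into double-stranded RNA by RDR6 and cut by Dicer-like enzymes into small interfering RNAs (siRNAs), which plants usually make from viruses, transposons and transgenes. Fragments left after cleavage by a microRNA (miRNA) can enter the same route. The question here was which genes yielded more or fewer small RNA reads without LSM1. A read count on a gene therefore stands for siRNAs and for any other short piece of its RNA, and it is not a measure of the mRNA.

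Between 6822452 and 7968503 reads per library fell on genes. Of 37184 genes, 9558 had enough reads to be tested, 5235 of them protein-coding and 3431 pseudogenes or transposable elements. Levels are given in RPM, reads per 1 M of the library scaled with TMM factors, which assume that most genes do not change. A count of 3 reads amounted to between 0.498 and 0.526 RPM in Col-0 (1) and between 0.304 and 0.362 RPM in *lsm1a lsm1b*. A gene was called where the edgeR quasi-likelihood test gave a Benjamini-Hochberg adjusted p-value under 0.05 and the log2 fold change exceeded 1 in size. Replicate 2 of *lsm1a lsm1b* stood apart, with 58.3% of its reads on rRNA genes against 43.1% to 48.0% in the other 5 libraries and with more reads on heat shock genes. LSM1A had 4, 0 and 1 reads in Col-0 (1) and 0 in each mutant library, and LSM1B had 0, 3 and 1 against 1, 3 and 1, so the mutated genes could not be used to check the labels.

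Against Col-0 (1), 735 genes were called in *lsm1a lsm1b*, which is 7.69% of the genes tested. Of these 210 rose (2.2% of the genes tested) and 525 fell (5.49%). The changes were mostly small, with a median log2 fold change of 1.4 for the genes that rose and -1.26 for those that fell, and 45 and 21 genes passed 2 in size. The libraries of the groups did not overlap in 204 of the 210 and 506 of the 525 genes, where 16.8% of all genes tested had every mutant library above and 19% had every one below. Leaving out replicate 2 of *lsm1a lsm1b* gave 182 and 448 genes. Many calls rested on single libraries: the adjusted p stayed under 0.05 in every fit without 1 library for 98 of the 210 and 299 of the 525.

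The direction of the balance rested on the scaling. With total reads on genes in place of TMM factors, every log2 fold change moved up by a median of 0.82, and the calls became 3328 up and 29 down. With TMM factors taken from protein-coding genes alone, chosen after seeing the data, the median shift was 0.26 and the calls were 592 up and 218 down. Since both scalings move all values up, the same 210 genes stayed called under each, which is no test of them. All 525 that fell stayed negative, but only 29 and 218 of them stayed called, so most of the decreases were relative to the other genes of the library. With the other control, Col-0 (2), 106 of the 210 and 324 of the 525 were called in the same direction.

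**Figure D1:**
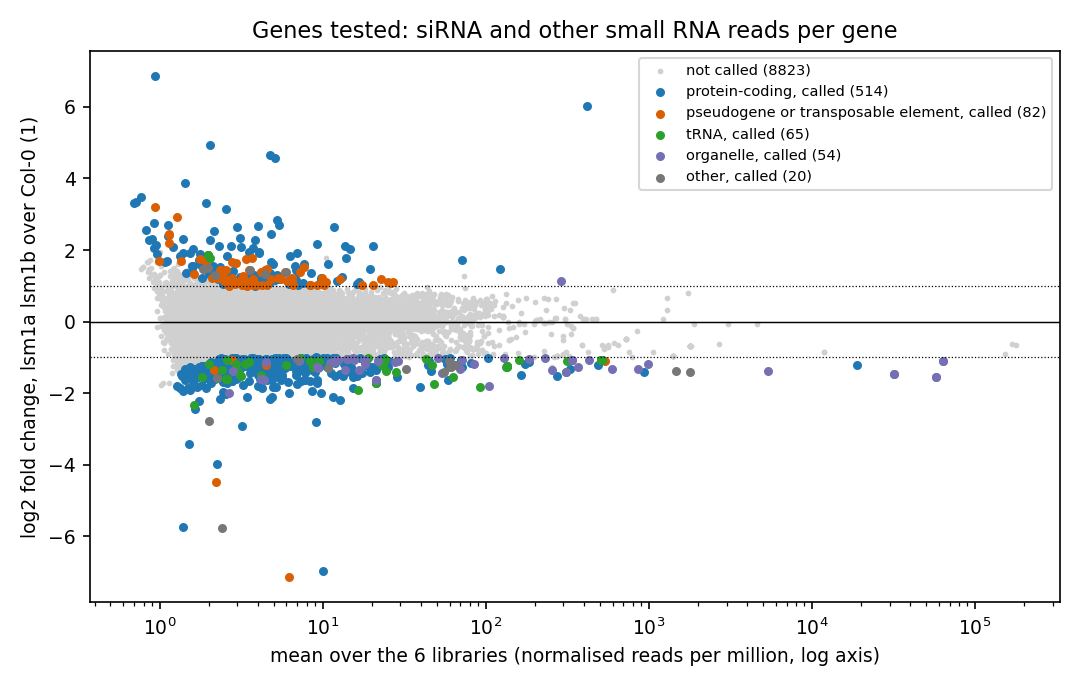
Log2 fold change of *lsm1a lsm1b* over Col-0 (1) for each of the 9558 genes tested (vertical axis) against its mean level in the 6 libraries (horizontal log axis, normalised RPM). Called genes are coloured by class and dotted lines mark a log2 fold change of 1 in size. The 514 protein-coding genes called lie mostly below the zero line, and the 82 pseudogenes or transposable elements called lie mostly above it.

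The composition of the libraries differed first of all at transposons. Pseudogenes and transposable elements took 3.28%, 3.45% and 3.55% of the reads in Col-0 (1) and 7.42%, 6.25% and 7.79% in *lsm1a lsm1b*. The groups did not overlap and the mean share was 2.09 times as large in the mutant. Protein-coding genes moved the same way, from 6.87% ± 0.44 to 9.07% ± 1.18 (mean ± SD, n = 3), which is 1.32 times. Chloroplast genes moved the other way, from 37.0% ± 2.16 to 27.4% ± 6.05. The share on rRNA genes (46.6% ± 1.55 and 49.4% ± 7.92) and on tRNA genes (4.19% ± 0.38 and 4.36% ± 0.49) overlapped between the groups. With 3 libraries against 3 an exact two-sided permutation test cannot give p below 0.1, and the transposon, protein-coding and chloroplast shares each reached that value (0.138 after Benjamini-Hochberg adjustment over 18 shares and ratios). So did long non-coding RNA genes, from 0.948% ± 0.096 to 1.42% ± 0.25 (1.5 times), and mitochondrial genes, from 0.603%, 0.621% and 0.575% to 0.716%, 0.827% and 0.789% (1.3 times), a direction opposite to that of the chloroplast genes.

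**Figure D2:**
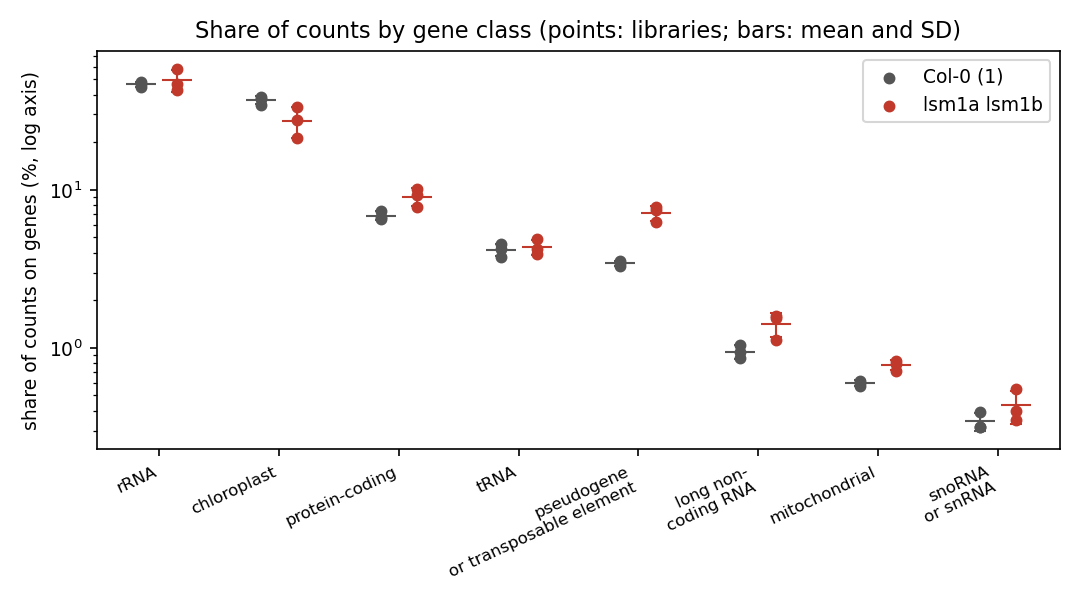
Share of all reads on genes (vertical log axis, %) taken by each class of genes in the 3 Col-0 (1) libraries (grey) and the 3 *lsm1a lsm1b* libraries (red), with the mean and SD as bars. Pseudogenes and transposable elements lie at 3.28% to 3.55% in Col-0 (1) and at 6.25% to 7.79% in the mutant, without overlap.

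Shares of one library are tied together, so that a smaller chloroplast share enlarges all others. A ratio within a library avoids this. Reads on pseudogenes and transposable elements were 0.702 ± 0.016 times those on protein-coding genes in Col-0 (1) and 0.951 ± 0.039 times in *lsm1a lsm1b*, a 1.35-fold difference without overlap (exact two-sided permutation p = 0.1). AT2G01021 was left out of this ratio, because this protein-coding entry alone held between 142173 and 171306 reads in each Col-0 (1) library and between 103346 and 107789 in each mutant library.

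The first set of sequences is shown because miRNA target sites recurred among the protein-coding genes that rose. Bases 2 to 8 of each miRNA, its seed, are written here in capitals, and in the targets the bases opposite the seed are in capitals. The capitals only guide the eye, since the search scored pairing along the whole miRNA. All are from RefSeq TAIR10.1, read 5′ to 3′, with T for U. The pairing of miR393 with the auxin receptor genes and with CIL2, which encodes a bHLH transcription factor, reads as follows.
miR393a-5p (chr2:16652111-16652132, plus strand): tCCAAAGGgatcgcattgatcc
AFB2 (chr3:9870237-9870258, plus strand, coding): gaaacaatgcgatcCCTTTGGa
CIL2 (chr3:8530587-8530608, minus strand, coding): gggtcagagcgatcCCTTTGGc
TIR1 (chr3:23273727-23273748, minus strand, coding): gagacaatgcgatcCCTTTGGa
AFB3 (chr1:4369085-4369106, minus strand, coding): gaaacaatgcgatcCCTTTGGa

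miR472 pairs with the part of resistance genes that encodes the nucleotide-binding loop of the protein, and these are its sites in 2 genes that rose, RSG1 and AT5G63020, and in 1 that was not called, AT5G43740.
miR472-3p (chr1:4182143-4182164, minus strand): tTTTTCCTactccgcccatacc
RSG1 (chr1:19092853-19092874, minus strand, coding): ggtatggggggagtAGGAAAAa
AT5G63020 (chr5:25285441-25285462, minus strand, coding): ggtatgggtggagtAGGTAAAa
AT5G43740 (chr5:17566541-17566562, plus strand, coding): ggtatggggggagtAGGAAAAa

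miR859, miR4243 and miR843 had sites in F-box genes. Shown are sites of 4 genes that rose and, for comparison, the miR859 site of AT3G16820, which was not called.
miR859 (chr1:22149735-22149755, plus strand): tCTCTCTGttgtgaagtcaaa
AT5G36200 (chr5:14245541-14245561, minus strand, coding): tttgactttacaaCAGAGAGa
AT3G16820 (chr3:5728430-5728450, minus strand, coding): tttgattttacaaCAGAGAGa
AT5G41490 (chr5:16601147-16601167, plus strand, coding): tttgactttacaaGAGAGAGt
miR4243 (chr5:19567227-19567247, plus strand): tTGAAATTgtagatttcgtac
AT5G41510 (chr5:16607660-16607680, plus strand, coding): gtatgaaatctacGATTTTGa
miR843 (chr3:17742147-17742167, plus strand): tTTAGGTCgagcttcattgga
AT3G13830 (chr3:4554152-4554172, plus strand, coding): ttcaatgaagctcGACCTAAa

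Sites were sought for 335 mature miRNAs of 20 to 22 nt with a penalty of 1 for a mismatch and 0.5 for a G:U pair, doubled at miRNA bases 2 to 12. A site of at most 4 was found in 35 of the 123 protein-coding genes that rose (28.5%), in 59 of the 391 that fell (15.1%) and in 894 of the 5235 tested (17.1%). The miRNAs with repeated sequence, miR414, miR5021 and miR5658, gave many of these, and without them the numbers were 28 (22.8%), 22 (5.63%) and 348 (6.65%). With a penalty of at most 2.5 and the repeated miRNAs included, the shares were 8.13% (10 genes), 3.58% and 4.30%. Among the 10, SOV and UCC2 matched only miR5021 and miR5658 at this limit. The match of DEG14 is to miR5657 at chr5:9789642-9789662, which is the locus of this miRNA itself on the opposite strand. DEG14 is also counted in the 35 and the 28. These are descriptions of sequence: a match is not evidence of cleavage. The genes miR393, miR472 and miR859 match also belong to families whose members resemble each other, so that they are not independent.

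Of the auxin receptor genes with the miR393 site, AFB2 rose and TIR1 and AFB3 were not called. AFB2 had 4.48, 6.49 and 5.16 RPM in Col-0 (1) and 15.1, 17.1 and 16.8 RPM in *lsm1a lsm1b*. The groups did not overlap (log2 fold change 1.60 ± 0.20, SE, adjusted p = 5.8e-05). CIL2 rose more, from 5.14, 5.78 and 6.54 RPM to 22.3, 23.0 and 25.8 RPM (log2 fold change 2.03 ± 0.18, adjusted p = 4.24e-06). TIR1, with log2 fold change -0.29 ± 0.30 (adjusted p = 0.548), and AFB3, with -0.06 ± 0.31 (adjusted p = 0.906), carry a site with the same 7 bases opposite the seed. The AFB3 site has the same letters as that of AFB2 over its whole length. AFB1, another auxin receptor gene with a site (penalty 3.5), had 5, 11 and 9 reads against 6, 3 and 3, too few to be tested. The 4 tested genes with the site thus did not move together, and TIR1 and AFB3 had between 2.23 and 4.59 RPM in all 6 libraries.

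Resistance genes of the CC type, which encode intracellular immune receptors with a coiled coil, rose in 4 of 13 tested members of the list and fell in none (2.2% of all genes tested rose), with a median log2 fold change of 0.68 where that of all genes tested was -0.03. The list was chosen with earlier results known and does not hold every gene of the type. Among all 46 tested genes that the annotation describes as resistance genes of these types, 6 rose and 3 fell, with a median of 0.08. All 6 are on the lists. The 3 that fell are of the same types but on neither list, RPP8 and AT5G48620 of the CC type (log2 fold changes -1.29 and -1.28) and AT2G14080 of the TIR type (-1.22). None of these 3 was called by total reads, and AT2G14080 was not called without *lsm1a lsm1b* replicate 2 (adjusted p = 0.121). The increase was largest at AT5G63020, with 2.32, 2.45 and 4.82 RPM in Col-0 (1) and 19.8, 22.1 and 18.8 RPM in *lsm1a lsm1b* (log2 fold change 2.66 ± 0.24, adjusted p = 5.04e-06). Its mutant libraries lay far above every control library. RSG1 rose from 2.16, 2.63 and 1.72 RPM to 5.47, 6.28 and 4.46 RPM (1.31 ± 0.29, adjusted p = 0.00628). The remaining 2, AT1G62630 and AT1G63360, rose by 1.73 and 1.17. Without Col-0 (1) replicate 3 the adjusted p of AT1G62630 was 0.0858, and without Col-0 (1) replicate 1 that of AT1G63360 was 0.0515.

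AT5G43740, whose miR472 site has the same letters as that of RSG1, had far more reads in the wild type: 43.6, 47.2 and 52.1 RPM against 81.1, 79.4 and 69.0 RPM. The groups did not overlap, but the log2 fold change of 0.68 ± 0.15 (adjusted p = 0.00493) stayed under the limit of 1. Among the TIR-type resistance genes, which carry another signalling domain, 2 of 8 tested rose and none fell (2.2% of all genes tested rose). AT5G38850 went from 59.2, 68.5 and 66.8 RPM to 194, 176 and 173 RPM, again without overlap (1.48 ± 0.15, adjusted p = 1.33e-05). AT5G51630 rose by 1.48 at a much lower level, between 0.83 and 4.05 RPM, and its adjusted p without *lsm1a lsm1b* replicate 3 was 0.0816.

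Pentatricopeptide repeat (PPR) proteins bind organelle RNA, and the Rf-like group of their genes is a known source of siRNAs set off by miR161 and miR400. Of 19 tested members 4 rose, where 2.2% of all genes tested did, and none fell, and 17 had a positive value. The wider class of genes described as PPR genes had 31 tested members, of which 3 rose and 2 fell, with a median of 0.08. AT1G12620 rose from 2.99, 2.98 and 3.44 RPM to 6.08, 6.76 and 8.21 RPM, without overlap (log2 fold change 1.16 ± 0.25, adjusted p = 0.00504). RFL2, AT1G64583 and AT5G16640 rose by 1.06, 1.11 and 1.11, and each lost its call when 1 Col-0 (1) library was left out, RFL2 without replicate 2 (adjusted p = 0.0704), AT1G64583 without replicate 3 (0.0526) and AT5G16640 without replicate 2 (0.173).

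Genes of the small RNA machinery itself are controlled by miRNAs. AGO1, which binds miRNAs and is matched by miR168, had 62, 54 and 56 reads in Col-0 (1) and 177, 144 and 197 in *lsm1a lsm1b*. Its groups did not overlap, and the log2 fold change of 0.91 ± 0.16 (adjusted p = 0.0014) was just under the limit. DCL1, the Dicer-like enzyme that makes miRNAs, was just over it with 2.82, 2.1 and 1.03 RPM against 3.24, 4.83 and 4.56 RPM (1.07 ± 0.35, adjusted p = 0.0449), and without Col-0 (1) replicate 3 its adjusted p was 0.177. AGO2 had the most reads of the 3, 183 to 233 RPM in the wild type and 294 to 370 RPM in the mutant, with a log2 fold change of 0.63 ± 0.16 (adjusted p = 0.013). PHO2, a ubiquitin-conjugating enzyme of phosphate homeostasis with sites for miR399, had 0.77 ± 0.28 (adjusted p = 0.0659). Of 10 tested transcription factor genes with well-known miRNA sites none was called in either direction (median 0.04), a number too small to set against the 7.69% of all genes tested.

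Genes of decapping and decay were looked at as lists. None of the 10 tested members of the decapping list passed in either direction, a number too small to set against the 7.69% of all genes tested. The median of these 10 was -0.58, which became 0.24 by total reads. The 9 genes of the other LSM subunits had too few reads to be tested. In the list of other decay factors 1 of 6 tested genes rose and none fell, again too few to compare. This gene was SOV, an exoribonuclease, which rose from 0.996, 0.526 and 0.86 RPM to 1.92, 2.78 and 1.62 RPM, without overlap but close to the threshold (1.37 ± 0.46, adjusted p = 0.0496). Without *lsm1a lsm1b* replicate 2 its adjusted p was 0.177.

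Among the classes of protein formed from the annotation's descriptions, F-box genes gave the highest number of increases, while aquaporin-like and glycine-rich proteins (18.8% of tested members each) and extensin-like proteins (16.7%) had higher shares. F-box proteins recruit substrates to ubiquitin ligases, and the family is very large in Arabidopsis, many in recent clusters of similar genes. In all 91 were tested, of which 14 rose (15.4%, where 2.35% of protein-coding genes rose) and 3 fell (3.30%, against 7.47%). The median of the 91 was 0.28, and that of protein-coding genes -0.30. The family was picked with its values in view, as were its members named below other than AT3G23633 and AFB2. Reads that match several members are counted at each of them, so that the increases are not independent.

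AT3G23633 was almost silent in the wild type, with 0, 1 and 1 reads, and had 45, 30 and 36 reads in *lsm1a lsm1b*. The ratio of its levels was 34.7 (95% counting interval 9.39 to 290), and the test gave an adjusted p of 4.53e-05. AT5G41490 rose from 5.48, 5.61 and 4.47 RPM to 23.3, 20.4 and 23.6 RPM, without overlap (log2 fold change 2.11 ± 0.18, adjusted p = 3.94e-06). AT5G36200, whose miR859 site differs from full pairing by a single G:U pair, rose from 2.99, 2.28 and 6.02 RPM to 9.82, 11.9 and 13.0 RPM (1.62 ± 0.28, adjusted p = 0.00103). These 3 genes thus spanned nearly silent and well-covered loci.

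Apart from AFB2, the remaining F-box genes that rose had means of 0.23 to 4.01 RPM in the wild type. AT3G13830, with sites for miR843, miR4243 and miR859, had 0.166, 0.351 and 0.172 RPM against 2.13, 1.45 and 1.32 RPM (2.76 ± 0.62, adjusted p = 0.00646). This rested on the low Col-0 (1): with 5, 8 and 12 reads in Col-0 (2) its log2 fold change over that control was 0.28 (adjusted p = 0.615), and over the other mutants it was 0.38 (adjusted p = 0.608), with 10, 35 and 45 reads in *upf3-1* against 21, 12 and 13 in *lsm1a lsm1b*. AT3G21130 rose by 1.54, AT5G41500 by 1.52, AT5G41510 by 1.41 and AT4G10740 by 1.38. AT3G49980, AT3G23685, AT4G12820, AT2G38590 and AT3G22720 rose by 1.1 to 1.21. Each of the 9 genes of these last sentences except AT5G41510 lost its call in at least 1 fit without a single library, with adjusted p-values from 0.0502 (AT2G38590 without Col-0 (1) replicate 2) to 0.176 (AT4G12820 without Col-0 (1) replicate 1). Of all 14 F-box genes that rose, 7 were also called over Col-0 (2), where AT2G38590 had 0.20 (adjusted p = 0.536). AT5G41490, AT5G41500 and AT5G41510 lie together with the pseudogene AT5G41494, which also rose, from 0.166, 0.351 and 0.516 RPM to 1.01, 2.78 and 2.03 RPM (2.43 ± 0.61, adjusted p = 0.0128, and 0.0657 without Col-0 (1) replicate 1). All 4 genes called in this stretch of chr5:16600445-16608326 changed in the same direction.

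Of the F-box genes tested, 29 had a site for miR859, miR774, miR4243 or miR843, and 9 of them rose. Of the 62 without such a site 5 rose, AFB2 among them. Closer pairing did not mark the genes that rose. Of the 5 tested F-box genes with a miR859 penalty of at most 1, AT5G36200 alone rose, while AT5G41490 rose with a penalty of 3.5. Of the 5 with a miR4243 penalty of 2.5, AT3G13830 alone rose. The F-box genes that fell were AT1G73120 (log2 fold change -1.96), SLOMO (-1.32) and AT5G27920 (-1.41). Of these, AT1G73120 was lower also by total reads (-1.14). SLOMO and AT5G27920 were not called without Col-0 (1) replicate 3 (adjusted p = 0.124) and replicate 2 (adjusted p = 0.139).

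**Figure D3:**
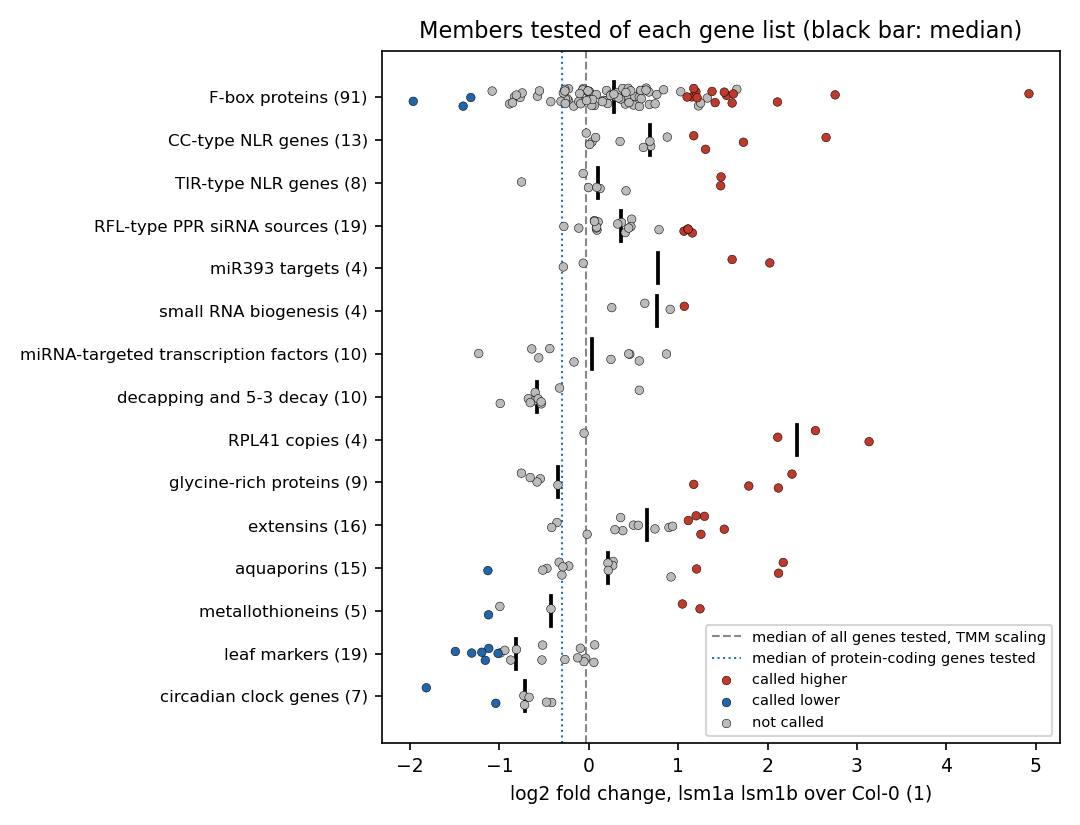
Log2 fold change of *lsm1a lsm1b* over Col-0 (1) (horizontal axis) for the tested members of 15 gene lists, 1 point a gene, with the number tested in brackets and the median as a black bar. Red points were called higher, blue points lower and grey points not called. The dashed and dotted lines are the medians of all genes tested (-0.03) and of protein-coding genes (-0.30). F-box and CC-type resistance genes reach to the right of both lines, while leaf markers and clock genes lie mostly to the left.

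The known hotspots NIA1, SMXL4, SMXL5 and NIA2 had log2 fold changes of 6.03, 3.47, 4.57 and 1.72, that of NIA2 resting on *lsm1a lsm1b* replicate 3 (adjusted p = 0.0953 without it). The study, which used DESeq2, reports accumulation at SMXL5 but none at SMXL4. At NIA2 it describes moderately more siRNAs, not significant with all lengths together but prominent in a narrower class of lengths. The call at SMXL4 thus departs from the study, and that at NIA2 differs from it in significance but not in direction. Other protein families are described next.

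The RPL41 genes encode one of the shortest ribosomal proteins, and the copies are nearly identical. Their first 30 coding bases are shown because the other copies differ from AT3G08520 at only 1 or 2 of them. Each base that differs from AT3G08520 is in capitals. Reads were mapped without mismatches, so copies share a read only where it covers no base that differs between them.
AT3G08520 (chr3:2586032-2586158, plus strand, intron included): atgagagccaagtggaagaagaagcgtatg
AT3G56020 (chr3:20790874-20791043, minus strand, intron included): atgagagcTaagtggaagaagaagcgtatg
AT3G11120 (chr3:3481128-3481256, plus strand, intron included): atgagGgcTaagtggaagaagaagcgtatg
AT1G56045 (chr1:20962686-20963220, plus strand, intron included): atgagagcGaagtggaagaagaagcgCatg
AT2G40205 (chr2:16792403-16792531, minus strand, intron included): atgagagcTaagtggaagaagaagcgAatg

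Of 4 RPL41 copies tested 3 rose, a number too small to set against the 2.2% of all genes tested that rose. AT3G08520 had 0.664, 0.526 and 0.344 RPM in Col-0 (1) and 4.66, 4.59 and 4.66 RPM in *lsm1a lsm1b*, without overlap (log2 fold change 3.14 ± 0.39, adjusted p = 6.48e-05). AT3G11120 rose by 2.54 and AT3G56020 by 2.11. AT1G56045, the copy with most reads in the wild type, had 26, 26 and 21 reads against 41, 37 and 34 and was not called. The 5 copies together reached 6.02 to 7.80 RPM in Col-0 (1) and 15.8 to 18.8 RPM in *lsm1a lsm1b*. Among all ribosomal protein genes tested these 3 were the only ones that rose, and 5 fell. In Col-0 (2), a control grown in the other set, AT3G08520 had 8, 14 and 27 reads, and the log2 fold change of *lsm1a lsm1b* over that control was 0.83 (adjusted p = 0.051).

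Genes of glycine-rich and structural cell wall proteins rose in part. Of 9 glycine-rich protein genes tested 4 rose and none fell, although the median was -0.35. GRP9 rose from 3.48, 5.26 and 10.2 RPM to 29.4, 13.2 and 22.5 RPM, without overlap (log2 fold change 1.79 ± 0.31, adjusted p = 0.00114). GRP5 and AT5G46730 rose by 2.27 and 2.12, and AT2G05510 by 1.17 (adjusted p = 0.131 without Col-0 (1) replicate 2). Extensins, glycoproteins that crosslink the cell wall, rose in 5 of 16 tested members of the list, by 1.11 to 1.52, and fell in none, with a median of 0.65 (2.2% of all genes tested rose). Among the 24 tested genes described as extensin-like, 4 rose and 1 fell, with a median of 0.19. EXT10 is an example, from 2.16, 3.33 and 3.61 RPM to 5.67, 8.93 and 7.80 RPM, without overlap (1.29 ± 0.28, adjusted p = 0.00472). Without a single Col-0 (1) library EXT7 (adjusted p = 0.059, replicate 1), EXT12 (0.114, replicate 1) and EXT11 (0.0913, replicate 2) were not called. The repeats of these genes are alike, so a read can belong to several of them.

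Aquaporins are the water channels of the plasma membrane and the vacuole. Of 15 tested 3 rose, where 2.2% of all genes tested did, and 1 fell, which is near the 5.49% of all genes tested. TIP1;1, of the vacuolar membrane, rose from 6.64, 7.01 and 9.29 RPM to 43.0, 22.8 and 34.0 RPM (2.12 ± 0.23, adjusted p = 1.94e-05). TIP2;2 rose from 3.15, 3.33 and 3.61 RPM to 19.4, 12.4 and 13.8 RPM (2.18 ± 0.24, adjusted p = 2.12e-05). In both genes even the lowest mutant library was above every wild-type library. PIP2;3 rose by 1.21 (adjusted p = 0.194 without *lsm1a lsm1b* replicate 1). PIP1;5 fell by 1.13 on the log2 scale, and only relative to other genes, as it was not called by total reads.

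Genes of stress and metal binding gave single members. Their lists held few tested genes, too few to set against the 2.2% of all genes tested that rose and the 5.49% that fell. Of 5 tested metallothioneins MT1B and MT1C rose, by 1.24 and 1.05. MT3 fell by 1.12, but not without Col-0 (1) replicate 2 (adjusted p = 0.0772). ERD10, a dehydrin induced by cold and drought, rose from 2.32, 2.1 and 1.72 RPM to 4.96, 4.46 and 5.17 RPM (1.24 ± 0.29, adjusted p = 0.00762), and M17, a late embryogenesis abundant gene, rose by 1.96. These were 2 of 8 tested genes of the cold, drought and abscisic acid list. LOX2, a lipoxygenase of jasmonate synthesis, and OSM34, an osmotin, rose by 1.35 and 2.28, 2 of the 3 tested on the jasmonate and wound list.

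HSP70 was called, but through a single library. It had 1.99, 0.175 and 1.55 RPM in Col-0 (1) and 1.52, 23.0 and 3.14 RPM in *lsm1a lsm1b*, so the groups overlapped, and without *lsm1a lsm1b* replicate 2 the adjusted p was 0.303. The same library held 79 reads on HSP101 against 7 and 15 in the other mutant libraries, and 141 reads on HSP90.1 against 7 and 24. It was also the library with the largest rRNA share.

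Among the single genes with the largest increases outside these families, AT5G07310, which encodes a protein with an ERF-type DNA-binding domain, had 1, 1 and 1 reads in the wild type and 32, 15 and 30 in the mutant (ratio 16.1, counting interval 5.30 to 79.6, adjusted p = 0.000384). SULTR3;2, a sulfate transporter gene, and AT1G19830, of the SAUR family of auxin-responsive genes, had ratios of 11.6 (2.99 to 99.2) and 11.3 (2.90 to 96.6), each from 2 reads in all Col-0 (1) libraries. Both lost their call when single libraries were left out, SULTR3;2 without Col-0 (1) replicate 2 (adjusted p = 0.0637) and AT1G19830 without Col-0 (1) replicate 1 (0.0716). AT5G05250, of unknown function, was better supported and rose from 0.166, 0.526 and 0.344 RPM to 4.05, 2.90 and 3.65 RPM (log2 fold change 3.31 ± 0.48, adjusted p = 0.00024).

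Several genes had reads in only some genotypes of the set. AT2G32291, a pseudogene of an F-box gene, had 80, 71 and 67 reads in Col-0 (1) and 1, 1 and 0 in *lsm1a lsm1b*, while *ncb-4*, *upf1-5*, *upf3-1* and Col-0 (2) had between 30 and 129 in every library. The ratio of its levels was 174 (counting interval 47.6 to 1447, adjusted p = 2.66e-08). AT1G10745, annotated as maternally expressed, had 136, 121 and 95 reads against 3, 1 and 0, but it had 1 to 3 reads in the *upf1-5* and *upf3-1* libraries too. The absence of reads at AT2G32291 was thus seen in *lsm1a lsm1b* alone among the groups compared, and that at AT1G10745 was shared with *upf1-5* and *upf3-1*.

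HIS1-3, a linker histone gene induced by drought, had few reads throughout, 14, 18 and 16 in Col-0 (1) and 1, 0 and 0 in *lsm1a lsm1b* (ratio 76.7, counting interval 13.1 to 3091, adjusted p = 7.3e-05), and 3 to 18 in the other mutants of the set. The long non-coding RNA gene AT2G05665 had 30, 21 and 33 reads against 1, 1 and 0 (ratio 67.1, 18.0 to 563, adjusted p = 1.24e-05), and it was near 0 in *upf3-1* as well. AT1G64035 and AT5G21125 fell with a log2 fold change of -4.47 and -3.99, but both were also low in some other mutants, and AT5G21125 had 0 reads in all Col-0 (2) libraries.

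The reverse pattern, reads in the mutant and none in the wild type, was found at AT5G43755, which encodes a retroelement reverse transcriptase-like protein. It had 0 reads in each Col-0 (1) library and 14, 10 and 30 in *lsm1a lsm1b*, at least 3.68-fold higher against a floor of 3 counts per library (adjusted p = 0.00142). However, Col-0 (2) had 21, 32 and 39 reads and *ncb-4* 25, 24 and 21, so that the groups with and without reads did not follow the mutation. AT3G09960, a phosphoesterase gene, had 0, 5 and 1 reads in Col-0 (1), 75, 87 and 91 in *lsm1a lsm1b* and 30 to 39 in Col-0 (2). Against Col-0 (2) its log2 fold change was 0.68 (adjusted p = 0.0228) in place of 4.66.

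**Figure D4:**
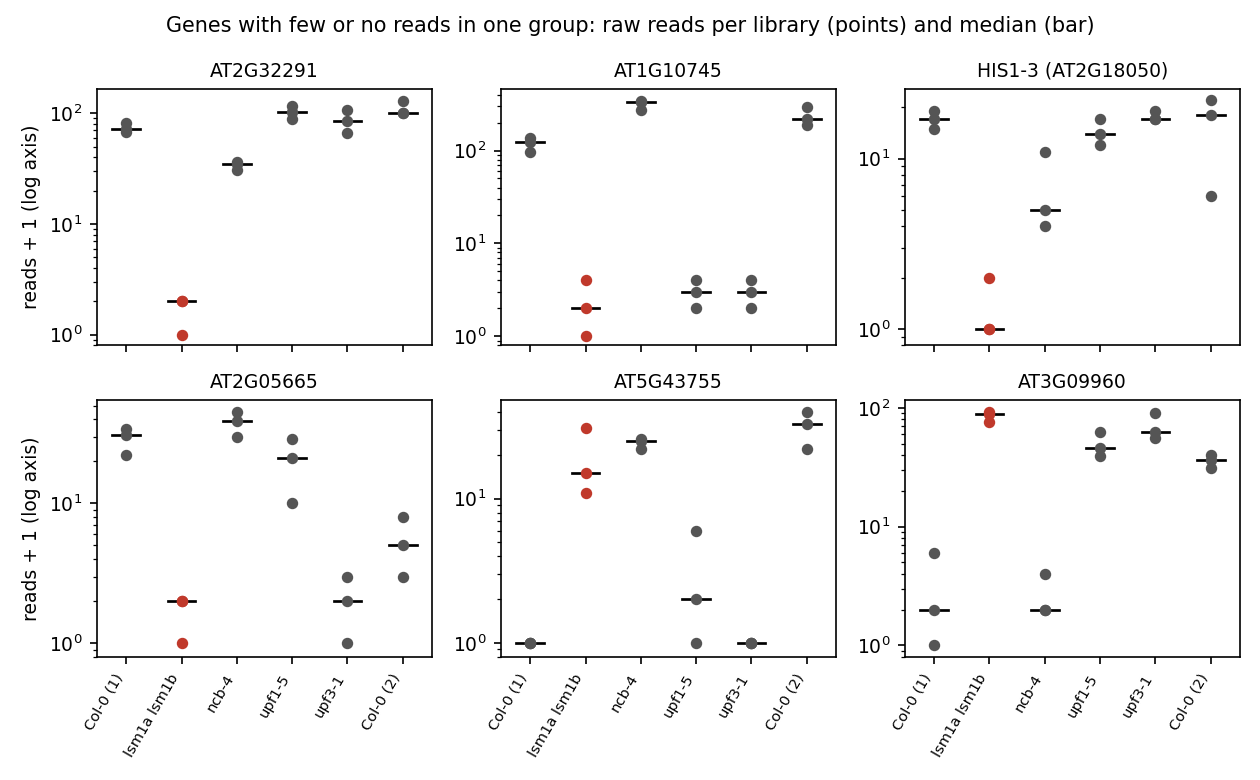
Raw reads plus 1 (vertical log axis) in each of the 3 libraries of the 5 genotypes of Set 1 and of Col-0 (2) at 6 genes with few or no reads in some groups; bars are medians and *lsm1a lsm1b* is red. At AT2G32291 and HIS1-3 *lsm1a lsm1b* is the lowest group with 0 or 1 reads per library, whereas AT1G10745 is low in the *upf* mutants as well. AT5G43755 has 0 reads in Col-0 (1) and 21 to 39 in Col-0 (2).

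With the TMM factors from all genes, single transposons were called higher about as often as other genes, but this depended on the scaling. Of 3431 pseudogenes and transposable elements tested 76 rose (2.22%, where 2.2% of all genes tested rose) and 6 fell (0.175%, against 5.49%). A positive value was found in 2664 (median 0.26). Elements in the 18 windows of 1 Mb that are richest in transposable elements, which hold the pericentromeres, rose in 57 of 2274 cases with a median of 0.33. In the other windows 19 of 1157 rose, with a median of 0.19. Under total reads the medians were 1.15 and 1.02. By total reads 2054 of the 3431 were called up, out of 3328 calls up among the 9558 genes tested. With TMM factors from protein-coding genes alone 314 were called up, out of 592. Examples are AT4G03824, from 0.166, 0.351 and 0 RPM to 1.72, 1.33 and 2.03 RPM (adjusted p = 0.00504), and AT2G12560, from 0.664, 0 and 0.172 RPM to 2.13, 2.05 and 2.63 RPM (adjusted p = 0.00463). The calls at AT1G31274 and AT4G14135, which rose by 2.44 and 2.2, were lost without *lsm1a lsm1b* replicate 3 (adjusted p = 0.0765 and 0.0966). SADHU5-1, a retroelement, was one of the few that fell (log2 fold change -1.20), and it was not called by total reads (-0.39).

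Protein-coding genes were split by the same windows. In those rich in transposable elements 14 of 429 rose and 12 fell, with a median of 0.07, whereas in the other windows 109 of 4806 rose and 379 fell, with a median of -0.33. EXT11, which is annotated as a pseudogene of the extensin family, rose from 1.49, 2.1 and 8.26 RPM to 8.31, 12.8 and 12.9 RPM (1.52 ± 0.40, adjusted p = 0.0149).

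Of the genes that rose 4 hold a mature miRNA sequence in an exon, out of 40 such genes tested (2.2% of all genes tested rose). None of the 40 fell, but 40 genes are too few to set that against the 5.49% of all genes tested. The 4 that rose were DEG14, AT2G02750, AT1G76065 and the transposable element gene AT3G30110. DEG14, a protease gene, had 1.33, 1.58 and 1.55 RPM in Col-0 (1) and 6.28, 8.93 and 9.32 RPM in *lsm1a lsm1b* (2.45 ± 0.29, adjusted p = 5.02e-05). Reads at these genes can be the miRNA itself or its precursor, and the reads were not separated here. Their values were known when they were chosen.

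The genes that fell were to 74.5% protein-coding, compared with 54.8% of all genes tested and 58.6% of those that rose. Leaf markers are light-harvesting and Rubisco small subunit genes, which are among the most expressed genes of green tissue, and they were used to check the labelled tissue. Of 20 such genes 19 were tested and LHCB1.5 was at 0 in all 6 libraries. Their summed level was 2035 to 2154 RPM in Col-0 (1) and 961 to 1257 RPM in *lsm1a lsm1b*. The root list summed to 25.9 to 36.3 RPM against 26.8 to 38.8 RPM, with NRT2.1 at 0 throughout, and the flower and seed list to at most 0.996 RPM with AP3 at 0 throughout. In bulk seedlings fewer cells of a type and less RNA per cell cannot be told apart.

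Of the 19 leaf markers tested 6 fell (5.49% of all genes tested fell) and none rose, with a median log2 fold change of -0.81. By total reads, however, none was called and the median was 0.03. LHCB1.4 fell from 237, 265 and 232 RPM to 96.6, 77.2 and 86.4 RPM (-1.49 ± 0.15, adjusted p = 1.33e-05). LHCB1.3 fell from 461, 483 and 462 RPM to 203, 168 and 196 RPM (-1.31 ± 0.15, adjusted p = 3.68e-05). These antenna genes are near-identical copies whose reads can be shared, and LHCB1.2, LHCB4.1, LHCA2 and LHCA3 fell with -1.02 to -1.20. Among all 57 photosystem and antenna genes tested 7 fell and 53 had a negative value, with a median of -0.61 that became 0.23 by total reads.

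Chloroplast genes formed a second group. Of 130 tested 50 fell (38.5%, where 5.49% of all genes tested fell) and 1 rose, with a median of -0.85 that became -0.02 by total reads. They are named by identifier because the annotation used here does not describe them. ATCG01120 fell from 4.31, 4.56 and 3.96 RPM to 1.11, 1.09 and 1.01 RPM (-1.98 ± 0.33, adjusted p = 0.000753), and it was the only one also called by total reads (-1.16). ATCG00900 and ATCG01240, whose counts were identical, fell from 36.0, 31.7 and 28.7 RPM to between 9.12 and 11.8 RPM (-1.64 ± 0.16, adjusted p = 1.24e-05). ATCG00930 was the one that rose, with overlapping groups (1.12, and adjusted p = 0.124 without Col-0 (1) replicate 2). Of 112 mitochondrial genes 3 fell and none rose.

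tRNA genes, whose reads are fragments of tRNAs, fell in 61 of 272 cases (22.4%, where 5.49% of all genes tested fell) and rose in 4 (against 2.2% of all), with a median of -0.71 that became 0.12 by total reads. The called decreases were unevenly spread over the amino acids. For glutamate 11 of 20 tested genes fell, for leucine 14 of 25, for glycine 7 of 11, for serine 12 of 28 and for proline 9 of 22. None of the 22 alanine, 14 asparagine and 13 cysteine genes was called, but all had negative values (medians -0.67, -0.66 and -0.53). Histidine, tryptophan and tyrosine genes had positive medians (0.14, 0.30 and 0.46). AT2G07762 fell from 403, 562 and 390 RPM to 141, 194 and 172 RPM (-1.42 ± 0.18, adjusted p = 7.3e-05). AT2G33920 lies in a stretch with 2 more genes that fell (chr2:14352191-14353727) and had the largest decrease (-2.33 ± 0.50, adjusted p = 0.00478). The 4 that rose were valine genes with shared reads and overlapping groups, and none was called without Col-0 (1) replicate 2 (adjusted p = 0.131 to 0.136). Copies of a tRNA gene share reads, so these counts are of loci, not of independent molecules.

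The U6 small nuclear RNA of the spliceosome is bound in the nucleus by the LSM2-8 ring, which shares subunits with LSM1-7. U6.5 fell from 68.5, 79.6 and 94.1 RPM to 30.4, 28.7 and 31.6 RPM (-1.42 ± 0.16, adjusted p = 2.45e-05), and U6.6, U6-29 and U6-1 fell with -1.27, -1.26 and -1.21. The copies share reads, and none was called by total reads. They were named because their decreases were among the largest called in their class. Of the 178 small nucleolar and small nuclear RNA genes tested 8 fell (4.49%, where 5.49% of all genes tested fell) and 2 rose. A link of the U6 decreases to the LSM rings was not tested.

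Among single protein-coding genes, 21 decreases were also called by total reads. FAD2, the oleate desaturase of the endoplasmic reticulum, fell from 18.3, 16.7 and 21.2 RPM to 5.06, 3.98 and 3.95 RPM, without overlap (-2.1 ± 0.20, adjusted p = 6.26e-06; -1.27 by total reads). FER1, which encodes the iron store ferritin, fell from 26.6, 20.7 and 24.8 RPM to 7.19, 7.72 and 4.97 RPM (-1.86 ± 0.19, adjusted p = 1.33e-05; -1.05 by total reads). FAD2 and FER1 lie outside the rule for named genes and were picked with their values in view.

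FBA5, an aldolase of glycolysis, fell from 15.6, 21.6 and 10.8 RPM to 3.34, 1.33 and 2.03 RPM (-2.81 ± 0.30, adjusted p = 2.12e-05; -1.97 by total reads). CYP81D11, a cytochrome P450 gene, fell from 4.98, 7.71 and 4.47 RPM to 1.01, 0.362 and 0.811 RPM (-2.91 ± 0.38, adjusted p = 0.000101). In both, Col-0 (1) held the higher reads: CYP81D11 had 2 to 4 reads in Col-0 (2) and FBA5 had 29 to 40, against 26 to 44 and 63 to 123 in Col-0 (1). AT2G48130, of the lipid transfer protein superfamily, fell from 25.7, 20.2 and 16.7 RPM to 5.57, 4.95 and 3.24 RPM (-2.19 ± 0.22, adjusted p = 1.33e-05). AT2G17033 and AT4G15160, of the PPR and the lipid transfer protein superfamilies, NACA3, for a chaperone of nascent chains, and AT4G09850 fell with -3.41, -2.45, -2.23 and -2.17.

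Clock genes were lower relative to other genes. GI, which couples the clock to flowering, fell from 6.64, 10.9 and 6.71 RPM to 2.84, 1.81 and 2.13 RPM (-1.82 ± 0.29, adjusted p = 0.000512), and TOC1, an evening component of the clock, fell with -1.04 (adjusted p = 0.0617 without Col-0 (1) replicate 2). All 7 clock genes tested were negative (median -0.72), and by total reads the median was 0.10 and none was called. GI had -0.99 there.

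The long non-coding RNA genes AT1G05163 and AT1G07017 had high read numbers. AT1G05163 fell from 2547, 2355 and 2837 RPM to 996, 926 and 1008 RPM (-1.40 ± 0.15, adjusted p = 2.45e-05), and AT1G07017 with -1.38. AT1G05163 overlaps the antisense gene AT1G15410, and since the strand setting of the counting is not named, reads of the one cannot be told from reads of the other. Of the 735 genes called 107 overlap a gene on the opposite strand, and of the 9558 tested 1245 do. The 4 long non-coding RNAs that rose, by 1.31 to 1.5, each lost their call without a single library. These were AT2G05705 and AT2G04615 without Col-0 (1) replicate 1 (adjusted p = 0.0878 and 0.105), AT5G04625 without *lsm1a lsm1b* replicate 3 (0.118) and AT5G15022 without Col-0 (1) replicate 3 (0.101).

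Read-through into a neighbour that is transcribed towards a gene can give antisense reads. Of the protein-coding genes that rose 25.2% had such a convergent gene nearer than 400 bp, of those that fell 31.7% and of all tested 28.9%. With a distance of 200 bp the shares were 22.8%, 28.6% and 25.1%. The share among genes that rose was thus close to that of all genes tested.

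To see where *lsm1a lsm1b* differed from other mutants of RNA metabolism, it was compared with the mean of *ncb-4*, *upf1-5* and *upf3-1* without using Col-0 (1). The *lsm1a lsm1b* libraries are the same in both comparisons, so their values are set side by side only. Here 335 genes were higher in *lsm1a lsm1b* (2.89% of 11579 tested) and 320 lower (2.76%). F-box genes were higher in 28 of 106 cases and lower in none, while 14 of 91 rose against Col-0 (1). Some of the 28 were not higher than the wild type, such as AT1G66490 (-0.43 over Col-0 (1)) and AT4G10190 (0.08). AT1G66490 had 15, 18 and 19 reads in *lsm1a lsm1b*, 16, 28 and 22 in *ncb-4* and 1 to 6 in the *upf* mutants. This contrast does not separate more reads in *lsm1a lsm1b* from fewer in the *upf* mutants. Of the 33 protein-coding genes with a site for miR859, miR774, miR4243 or miR843 that were tested against Col-0 (1), 16 were higher and none lower.

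At AT5G41490 the log2 fold change over the other mutants was 5.10 (adjusted p = 2.82e-15), from 230, 169 and 233 reads in *lsm1a lsm1b*, 46 to 60 in *ncb-4*, 0 to 4 in *upf1-5* and 0 to 3 in *upf3-1*. AT5G36200 gave 4.07 and AT3G21130 5.13 in the same way, with 97 to 128 and 22 to 36 reads in *lsm1a lsm1b* and at most 8 and 1 in the *upf* mutants. AT3G20690 was an F-box gene with many reads, 703, 518 and 530 in Col-0 (1) and 1274, 1380 and 2078 in *lsm1a lsm1b*. It was not called against the wild type (0.76 ± 0.18, adjusted p = 0.0095) but was higher than in the other mutants (2.73, adjusted p = 1.1e-12), where *upf3-1* had 79, 47 and 55 reads. At these genes the difference held 2 parts, more reads in *lsm1a lsm1b* and fewer in the *upf* mutants than in the wild type.

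**Figure D5:**
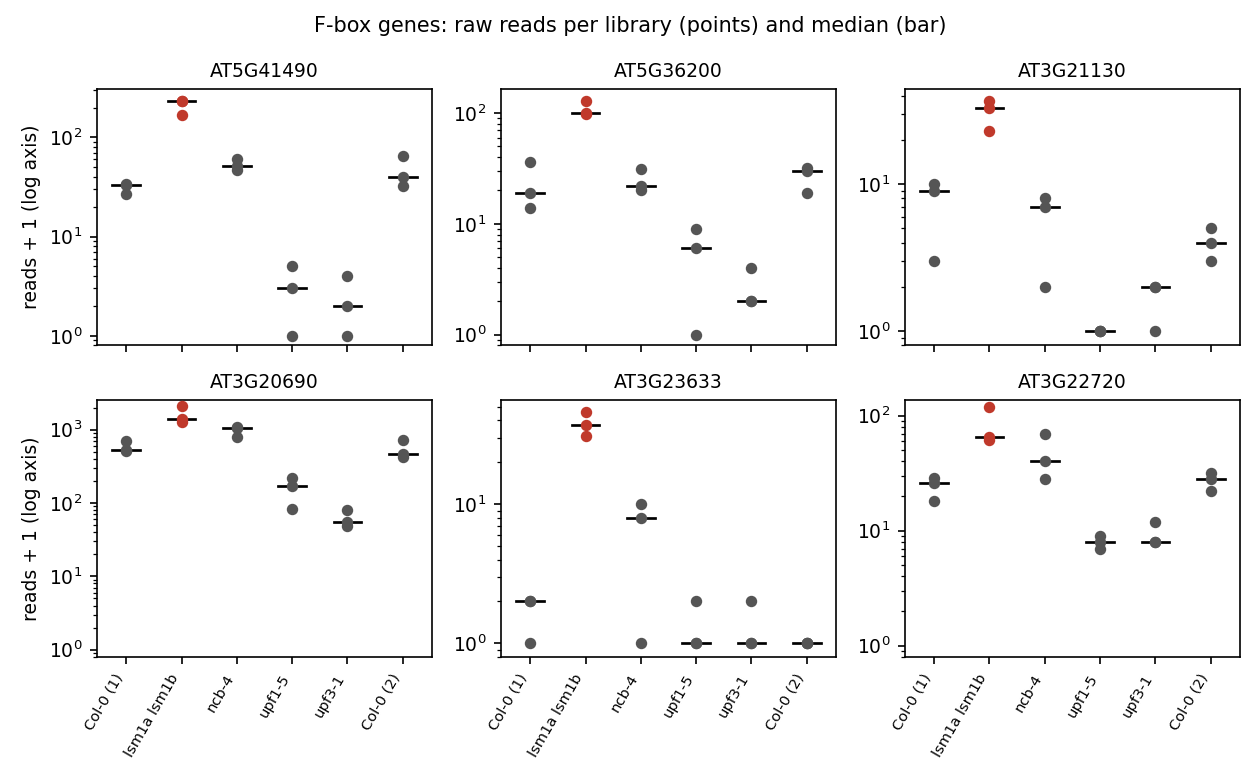
Raw reads plus 1 (vertical log axis) at 6 F-box genes in each of the 3 libraries of the 5 genotypes of Set 1 and of Col-0 (2); bars are medians and *lsm1a lsm1b* is red. At AT5G41490 the mutant has 169 to 233 reads, Col-0 (1) 26 to 33 and *upf1-5* at most 4, and in all 6 panels *lsm1a lsm1b* has the highest median.

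Other genes of the lists kept apart from the other mutants as well. AFB2 and CIL2 were higher by 1.12 and 2.26, AT5G63020 by 2.93 and TIP2;2 by 3.32 (adjusted p = 2.83e-07, 1.37e-12, 1.71e-14 and 2.17e-13). The 3 RPL41 copies were higher by 2.18 to 2.24, and FAD2 was lower with -1.51. The leaf markers were not lower here, with 2 of 19 higher and none lower, and of 7 clock genes tested in this contrast 4 were higher and none lower. These were PRR5 (3.25, adjusted p = 1.99e-06), PRR7 (2.42, adjusted p = 3.99e-05), GI (1.26, adjusted p = 0.00834) and LUX (1.24, adjusted p = 0.00699). LHCB1.4, for example, had 0.11 (adjusted p = 0.586). Leaf markers and clock genes called lower against Col-0 (1) were thus not lower against the other mutants. Whether the 2 comparisons differ from each other was not tested.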

How the data were processed

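The authors deposited raw counts, the reads counted on each Araport11 gene by HTSeq 0.6.0, with no normalization. Per the methods, adapters were removed with cutadapt 1.9, and Bowtie 1.0.0 mapped reads to TAIR10 without mismatches, keeping reads with several places. All read lengths are together, and the strand setting of the counting is not given in the sources used here. Counts that carry no gene name were not used; they held 59.5% to 63.7% of all counts in these 6 libraries. A total of 256 genes have counts identical to another gene's, a sign that reads at several places count at each.

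Groups came from the genotype labels. Genes were tested with edgeR 4.0.16 (R 4.3.3, limma 3.58.1): TMM factors, filterByExpr, quasi-likelihood fit of the 6 libraries, Benjamini-Hochberg adjustment over all genes tested. Standard errors are the log2 fold change divided by the square root of F. The contrast with other mutants fitted 12 libraries of *lsm1a lsm1b*, *ncb-4*, *upf1-5* and *upf3-1*. DESeq2 1.42.0 was an alternative, and other alternatives were scalings, filters, single libraries left out and the other control. On simulated counts (8335 genes, 200 changed) the *lsm1a lsm1b* test recovered 98.5% and made 4 false calls. The rate of recovery or of false calls in the sequenced libraries was not tested. Counting intervals (95%, exact) and floors of 3 counts cover counting error only, since reads carry no molecular identifiers.

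Gene classes and miRNA sequences came from RefSeq TAIR10.1; sites were searched in mRNAs with Python 3.11.15 (numpy 2.4.6, pandas 2.3.3, scipy 1.17.1), and figures drawn with matplotlib 3.10.9. The genes named are the mutated genes, the called members of the lists, up to 10 protein-coding genes a direction and up to 5 of each other class with the largest change among called genes whose raw counts do not overlap. The gene lists and members were chosen with earlier results of these data known. Read lengths, strands and miRNA levels are not analysed here.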

Additional observations from a re-analysis of the deposited data

Results flagged for a closer look

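In the contrast of *lsm1a lsm1b* with the mean of *ncb-4*, *upf1-5* and *upf3-1*, which tests the difference between mutants itself, 335 genes were higher and 320 lower. Of the genes that the rule for named genes gave and that changed in the same direction against Col-0 (1), those farthest apart in this contrast are given here with their log2 fold changes. Among F-box genes outside that rule AT3G17500 (5.85, from 11, 13 and 12 reads against 0 or 1, not called against Col-0 (1)), AT3G21130 (5.13), AT5G41490 (5.10) and AT5G36200 (4.07) were also far apart. NIA1 was higher by 5.40 (adjusted p = 6.01e-15), SMXL5 by 5.10 (adjusted p = 1.37e-12), the F-box gene AT3G23633 by 4.98 (adjusted p = 3.65e-08) and AT5G07310 by 3.40 (adjusted p = 4.57e-06). HSP70 was higher by 3.50 (adjusted p = 8.89e-06), and *lsm1a lsm1b* replicate 2 held 191 reads against 15 and 31 in the other 2 libraries. AT2G32291 was lower with -6.54 (adjusted p = 3.71e-12), HIS1-3 with -4.72 (adjusted p = 4.87e-05), AT2G05665 with -3.71 (adjusted p = 0.00216) and AT1G10745 with -3.11 (adjusted p = 0.000315). At AT1G10745 *upf1-5* and *upf3-1* had only 1 to 3 reads too, and at AT2G05665 *upf3-1* was near 0, so these differences rest on the remaining mutants. The 4 genes that were lower had at most 3 reads per library in *lsm1a lsm1b*, so that the fitted values depend on the prior count of the test. NIA1 reads ranged from 303 to 1651 RPM between the mutant libraries. The causes of these differences were not tested.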

How the results depend on the processing

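The counts of genes up and down (210 and 525) became 3328 and 29 with total reads, 3884 and 26 with total reads without rRNA genes, 592 and 218 with TMM factors from protein-coding genes alone (chosen after seeing the data) and 466 and 1144 against Col-0 (2). Without a filter on low counts 329 rose, and DESeq2 gave 160 up and 256 down, which held 123 of the 210 and 256 of the 525. It gave no adjusted p for 51 and 70 of these genes. For the 123 protein-coding genes up these were 1093, 1297, 246 and, without a filter, 191. Against the other mutants, 511 in place of 335 genes were higher without a filter. Leaving out single libraries gave 155 to 230 up and 384 to 587 down, and 273 to 380 higher and 236 to 334 lower against the other mutants. Against Col-0 (2) the values of AT5G43755 (-1.37) and ATCG00930 (-0.33) changed sign; of 106 named genes 36 more lost their call there, and 26 with total reads. The numbers of the replicates did not pair the samples (correlations of deviations -0.06, -0.01 and 0.02 for equal numbers), and a replicate block gave 173 up and 441 down, 99 protein-coding genes up, and 319 and 312 against the other mutants. Genes near 3 reads per library limit the depth at which a difference was detectable.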
